A study of Homo sapiens with 4 samples.

Results

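The genes described here are the core machinery of apoptosis: the BCL2 family, the death receptors and their adaptors, the caspases with the apoptosome, and the inhibitors of apoptosis with their antagonists. They are 39 genes chosen by name out of 29286 listed by Ensembl identifier, and 36 of them counted as expressed. A member was counted as not expressed when it was below 1 FPKM (a level scaled by transcript length and library size) in 3 or more libraries. The data are RNA sequencing of HCT116, an established human colorectal carcinoma line. The cells of all 4 libraries received a lentivirus for 48 h, followed by 3 days of puromycin selection. The 2 control libraries carried a non-targeting hairpin, shNC2 in the titles and shNC here, and the 2 knockdown libraries a hairpin against WDR43 (shWDR43), which encodes a nucleolar protein needed to assemble the small ribosomal subunit. The control cells therefore share the infection and the selection with the knockdown cells, the labels name a single WDR43 hairpin, and they do not say whether replicates came from separate cultures. The p-values therefore reflect library-to-library variation alone, and it may be technical variation.

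Apoptosis runs along 2 routes that meet at the caspases. In the mitochondrial route, BH3-only proteins sense stress and either bind the anti-apoptotic guardians of the BCL2 family or activate the effectors BAX and BAK, which open the outer mitochondrial membrane, release cytochrome c and so let APAF1 assemble the caspase-9 platform called the apoptosome. In the receptor route, ligands of the TNF family gather FAS or the TRAIL receptors, and the adaptor FADD recruits caspase-8.

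WDR43 itself was not analysed here, so its own level gives no check of the labels. Library sums ran from 393582 to 413758 FPKM, read totals were not used here, and the depth behind each value is unknown. Of 9 epithelial markers in the values, 7 were expressed, VIL1 and LGALS4 being below 0.1 FPKM in all 4 libraries. Their summed level went from 1773 and 2104 FPKM in the controls to 2558 and 2527 FPKM in the knockdown libraries. KRT8, KRT18, KRT19 and CLDN4 were higher in both knockdown libraries than in either control. For EPCAM, CDH1 and CDX2 the groups overlapped, so the sum does not describe every expressed marker. The part of this sum in the results below was not tested. Of the 5 fibroblast markers found, COL1A1 alone was expressed, at 5.69 to 7.80 FPKM, and the leukocyte and endothelial lists summed to at most 0.498 FPKM. In such bulk samples, fewer cells of a type and less RNA per cell cannot be told apart. Of 13303 tested genes, 637 were higher and 196 lower in shWDR43 (adjusted p below 0.05 by Benjamini-Hochberg over all these genes, limma fitted to log2 of FPKM + 1), which is 4.79% and 1.47%. Rescaling the libraries by median ratios turned that split into 298 to 236, and rescaling by upper quartiles into 327 to 287. Scaling moved the median difference of all genes from 0.05 to -0.01 under either.

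Cells with the WDR43 hairpin had higher transcript levels of 10 of the 36 expressed members, against 4.79% of all tested genes, and no member was lower. The 10 were the effectors BAX and BAK1, the BH3-only genes BBC3, BIK and BCL2L11, the receptors FAS, TNFRSF10A and TNFRSF10C, the cytochrome c gene CYCS, and BIRC3, an inhibitor of apoptosis. Increases ran from 1.36-fold (TNFRSF10A) to 2.40-fold (FAS) in mean FPKM. Of the members that did not pass, 6 were higher and 0 lower at an unadjusted p below 0.05, where 17.8% and 8.63% of all tested genes, called ones included, were so in each direction. The median log2 difference of the 36 members was 0.25, beside 0.05 over all tested genes. In 26 members both shWDR43 libraries were above both shNC libraries, in 1 both were below, and in 9 the groups overlapped. Over all tested genes, 35.8% were separated upward and 21.5% downward. For one gene alone, exact permutation of 2 against 2 libraries gives no p below 0.333.

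Calls among all genes changed when a library was left out or the libraries were rescaled. The number of members that passed changed in the same fits, and the cause was not tested. Omitting shNC replicate 2 raised the number higher in shWDR43 among members and among all tested genes, and omitting either shWDR43 replicate lowered both. Omitting shNC replicate 1 raised the number over all tested genes but not that of members. Either scaling gave 6 members. Over all tested genes, 298 were higher under median-ratio and 327 under upper-quartile scaling, against 637 without rescaling. Among the fits with 1 library left out, BAD, BCL2L1, BCL2L12, CASP6, CRADD, FADD, HTRA2 and PMAIP1 passed only without shNC replicate 2. FAS, BIK, BAX and BIRC3 passed with each library left out in turn and under both scalings. Without the filter on low values, where near-zero genes enter the fit, 0 of 39 members passed (limma), while the values of the members were the same.

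**Figure D1:**
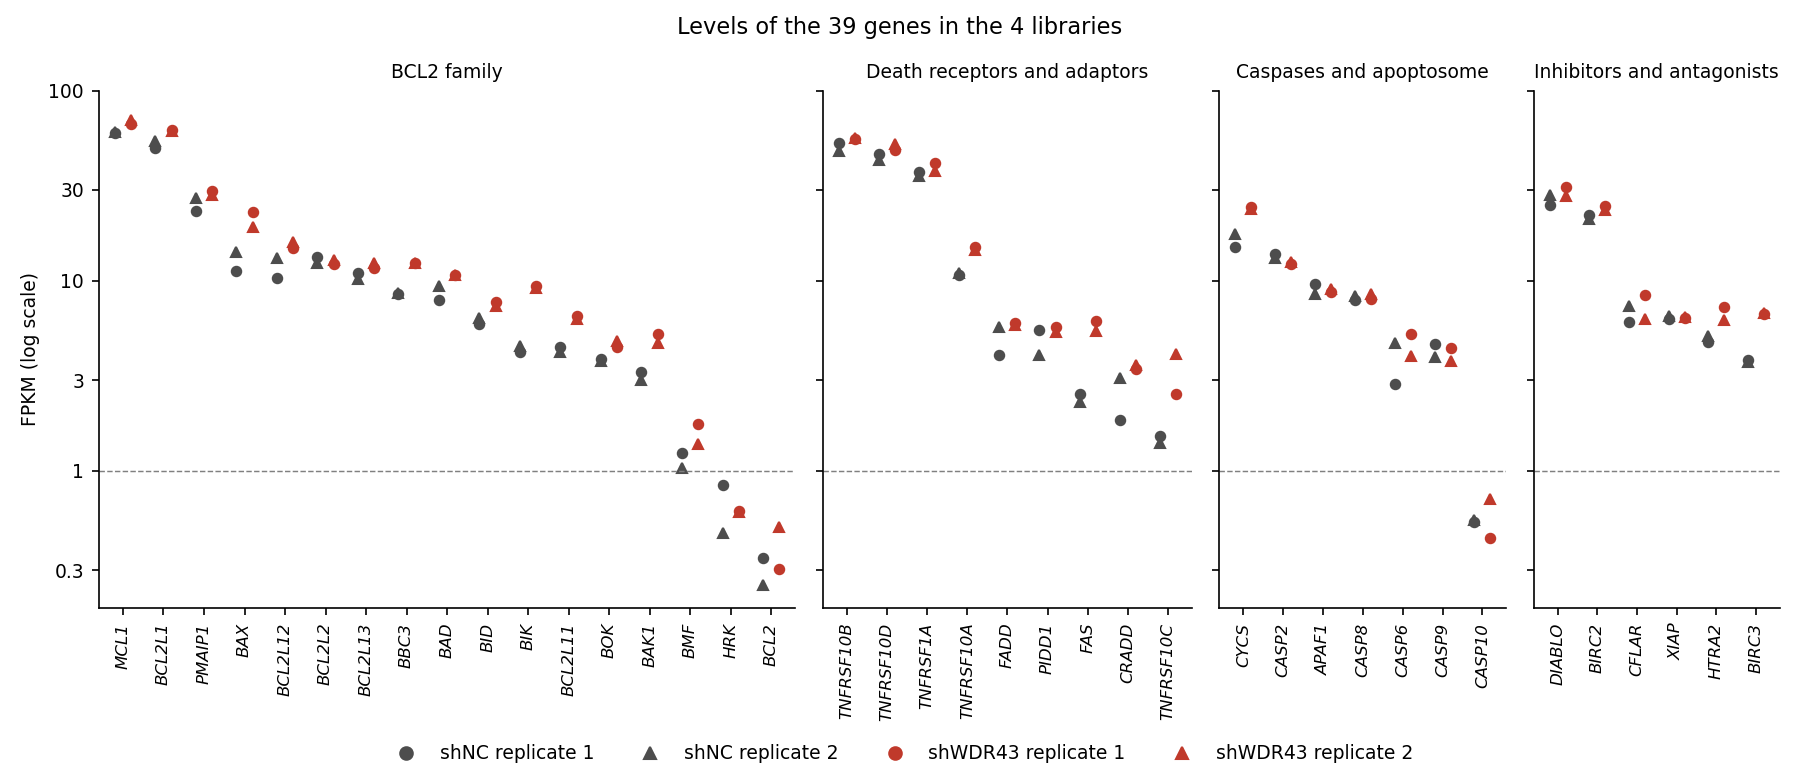
FPKM on a log axis for all 39 members, ordered by mean level within each subgroup, with circles for replicate 1 and triangles for replicate 2 of shNC (grey) and shWDR43 (red). MCL1, BCL2L1, TNFRSF10B and TNFRSF10D lie highest, and HRK, BCL2 and CASP10 lie below the dashed line at 1 FPKM in all 4 libraries.

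**Figure D2:**
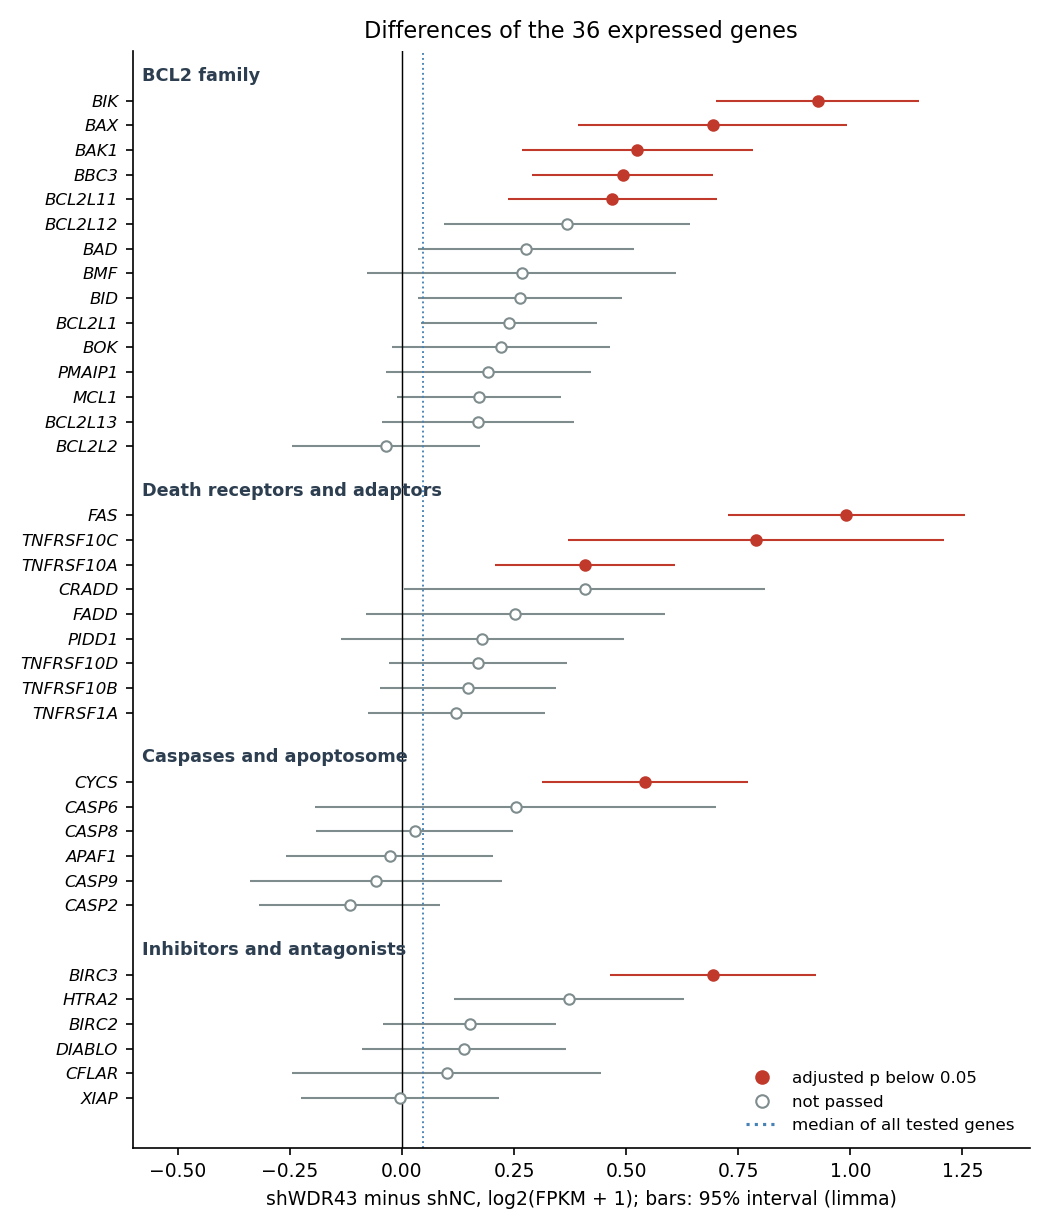
Difference of shWDR43 minus shNC on the log2(FPKM + 1) scale with its 95% interval from limma for the 36 expressed members. Filled points passed the test over all genes, and the dotted line marks the median of all tested genes, 0.05.

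The threshold for expression fell between BMF and HRK. BMF, a BH3-only gene, measured 1.24 and 1.03 FPKM in the controls and 1.76 and 1.39 FPKM in the knockdown libraries, just inside. HRK, another BH3-only gene, was just outside, with 0.842 and 0.472 FPKM in the controls and 0.613 and 0.605 FPKM in the knockdown libraries. CASP10, a caspase-8 relative, reached at most 0.710 FPKM. BCL2, the founding member of the family, was between 0.251 and 0.507 FPKM in the 4 libraries, with overlapping groups.

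Stretches before annotated transcription starts were searched on both strands for the binding motifs of NF-kB and NRF1, because BIRC3 is a known NF-kB target and CYCS a known NRF1 target. The sequence shown belongs to BIRC3, a member that rose and held matches outside any annotated exon, written 5′ to 3′ on the gene's strand, with the matched bases in capitals. It comes from RefSeq windows of GRCh38.p14 that run from 250 bases before to 50 after a start, and 31 members had such a window, 7 of the 10 that rose among them.
BIRC3, NF-kB sites, chr11:102317265-102317378, plus strand: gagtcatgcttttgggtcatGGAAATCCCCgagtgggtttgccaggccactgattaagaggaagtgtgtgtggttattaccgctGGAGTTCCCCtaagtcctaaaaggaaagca
The BIRC3 matches begin at -199 and -135, both on the opposite strand and in no annotated exon. The NF-kB consensus, searched on both strands, was present for 5 of the 31 (BIRC3, BMF, CFLAR, CRADD and FAS) and for 7.09% of 27305 genes. The palindromic NRF1 core, a motif of genes for mitochondrial proteins, was present for 0 of the 31 and 1.52% of genes. It was searched as a single fixed sequence, so variant NRF1 sites could not match. Its absence therefore does not show that CYCS or another member lacks an NRF1 site. Genes with several starts have more windows. A match is a description of the letters, and the motifs were chosen with the changes of these genes known.

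Effectors of the BCL2 family, the proteins that permeabilise mitochondria, had 2 of 3 members that rose. BAX (chromosome 19, 48954815 to 48961798, GENCODE release 29) measured 11.3 and 14.1 FPKM in the controls and 22.9 and 19.2 FPKM in the knockdown libraries. The lowest knockdown library was above the highest control, although the 2 libraries of each group differed by 0.30 and 0.24 in size on the log2 scale. BAX rose by 0.69 ± 0.13 (log2 difference ± SE, limma adjusted p = 0.0317, n = 2 per group), or 1.66-fold in mean FPKM. BAK1 (chromosome 6, 33572547 to 33580293) went from 3.30 and 3.01 to 5.24 and 4.73 FPKM, a log2 change of 0.53 ± 0.11 (limma adjusted p = 0.0385). BAK1 did not pass without shWDR43 replicate 1 (adjusted p = 0.212) or replicate 2 (adjusted p = 0.0643), nor under either scaling (0.0558 and 0.0564). The third effector, BOK, was at 3.87 and 3.78 against 4.45 and 4.80 FPKM, without overlap, and did not pass (adjusted p = 0.223). BAX exceeded BAK1 in level 3.41 to 4.69 times in every library.

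Of the BH3-only genes, 3 of 7 expressed members rose, and in all 7 both knockdown libraries were above both controls. Over all tested genes, 35.8% were separated in this direction. BIK, which binds the guardians at the endoplasmic reticulum and mitochondria, had the largest change of the BCL2 family (chromosome 22, 43110748 to 43129712). It measured 4.22 and 4.53 FPKM in the controls and 9.32 and 9.10 FPKM in the knockdown libraries, which is a log2 change of 0.93 ± 0.10 (limma adjusted p = 0.00783). BBC3, which encodes PUMA (chromosome 19, 47220822 to 47232766), had the closest replicates, at 8.48 and 8.57 FPKM against 12.4 and 12.4 FPKM. Its log2 change was 0.49 ± 0.09 (limma adjusted p = 0.0281), but it did not pass without shWDR43 replicate 1 (0.0909) or replicate 2 (0.0883), where the difference was 0.50 and 0.49. BCL2L11, the gene of BIM (chromosome 2, 111119378 to 111168447), went from 4.46 and 4.20 to 6.49 and 6.26 FPKM, a log2 change of 0.47 ± 0.10 (limma adjusted p = 0.0393). It did not pass without shWDR43 replicate 1 (0.205) or 2 (0.129), under median-ratio (0.0580) or upper-quartile scaling (0.0597), or with the replicate block (0.0625). The long non-coding gene MIR4435-2HG spans BCL2L11 on the opposite strand, at 13.4 to 15.2 FPKM with overlapping groups. Strand was not given for the counting, which makes the level of BCL2L11 uncertain.

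The other BH3-only genes did not pass. PMAIP1, which encodes NOXA, a partner of MCL1, was the most abundant of them, with 23.2 and 27.3 FPKM in the controls and 29.6 and 28.2 FPKM in the knockdown libraries. Its log2 difference of 0.19 (adjusted p = 0.256) was smaller than the gap of 0.22 between the shNC libraries. BID, which links caspase-8 to mitochondria, was at 5.91 and 6.36 against 7.77 and 7.36 FPKM (adjusted p = 0.141). BAD, a phosphorylation-controlled ligand of BCL2L1, was at 7.95 and 9.37 FPKM in the controls against 10.7 FPKM in both knockdown libraries (adjusted p = 0.142). BMF had a log2 difference of 0.27 (adjusted p = 0.294).

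None of the 3 expressed guardians passed the test (limma), and 1, BCL2L1, had an unadjusted p below 0.05. MCL1, a short-lived guardian that holds BAK1 and BIM, was the most abundant member of the family, with 59.9 and 60.6 FPKM in the controls and 66.6 and 69.5 FPKM in the knockdown libraries. Its log2 difference was 0.17 ± 0.08 with a 95% interval of -0.01 to 0.36 (adjusted p = 0.212). BCL2L1, the gene of BCL-XL and of its short form BCL-XS, which these gene-level values do not separate, was at 49.6 and 54.6 against 62.0 and 61.1 FPKM. That is a log2 difference of 0.24, interval 0.04 to 0.44 (adjusted p = 0.124). ABALON, a gene antisense to BCL2L1, measured 7.15 and 6.49 FPKM in the controls and 9.24 and 10.9 FPKM in the knockdown libraries, and strand was not given for the counting. BCL2L2, the gene of BCL-W, was at 13.4 and 12.4 against 12.3 and 12.8 FPKM, with overlapping groups. MCL1 and BCL2L1 together gave 88.9% to 91.1% of the summed guardian level in the 4 libraries. The atypical relatives did not pass. BCL2L12 was at 10.4 and 13.1 against 14.8 and 15.9 FPKM (adjusted p = 0.102), and BCL2L13 at 11.0 and 10.2 against 11.7 and 12.4 FPKM (adjusted p = 0.282).

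**Figure D3:**
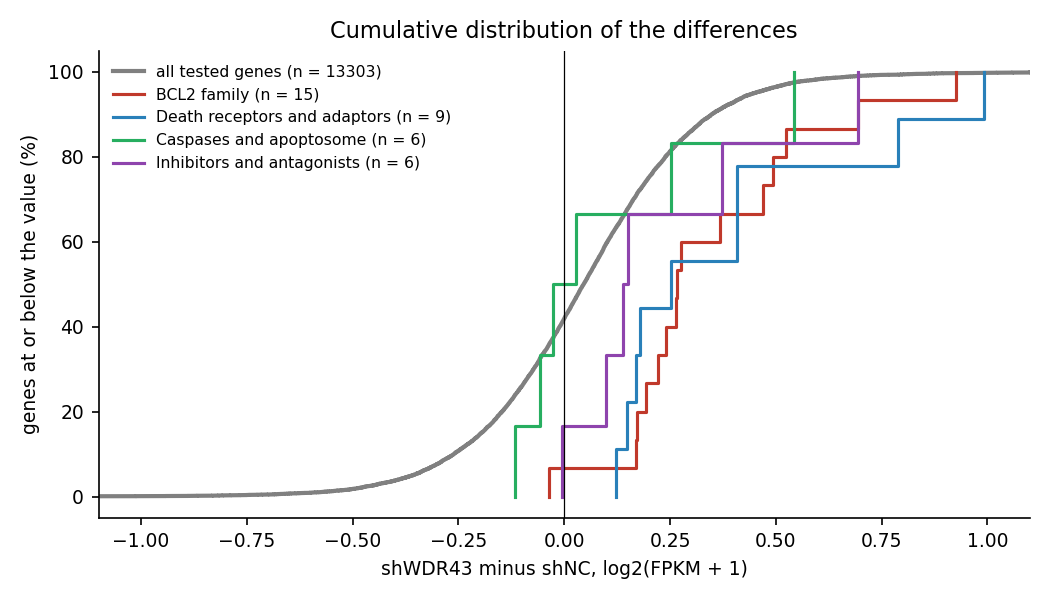
Cumulative share of genes (vertical, in percent) at or below each log2 difference (horizontal) for all 13303 tested genes and the 4 subgroups of expressed members. The BCL2 family and the receptor curves lie to the right of the grey curve, with medians of 0.27 and 0.25, while the caspase and apoptosome curve has a median of 0.00.

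Summed over genes, which FPKM allows because it is per length, the effectors went from 18.4 and 20.9 FPKM in shNC to 32.6 and 28.8 FPKM in shWDR43. The BH3-only genes went from 56.3 and 61.8 to 78.6 and 76.1 FPKM, and the guardians from 123 and 128 to 141 and 144 FPKM. In ratios of group means this was 1.56 ± 0.20, 1.31 ± 0.09 and 1.14 ± 0.03 (SD carried over from the replicates). Scaling lowered all 3 ratios, to 1.49, 1.25 and 1.09 by median ratios and to 1.49, 1.25 and 1.08 by upper quartiles. Effectors and BH3-only genes together stood at 0.607 and 0.647 of the guardian sum in the control libraries and at 0.788 and 0.728 in the knockdown libraries, a comparison within each library that scaling cannot move. Transcript sums do not give protein amounts. These sums are descriptions, with no test.

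**Figure D4:**
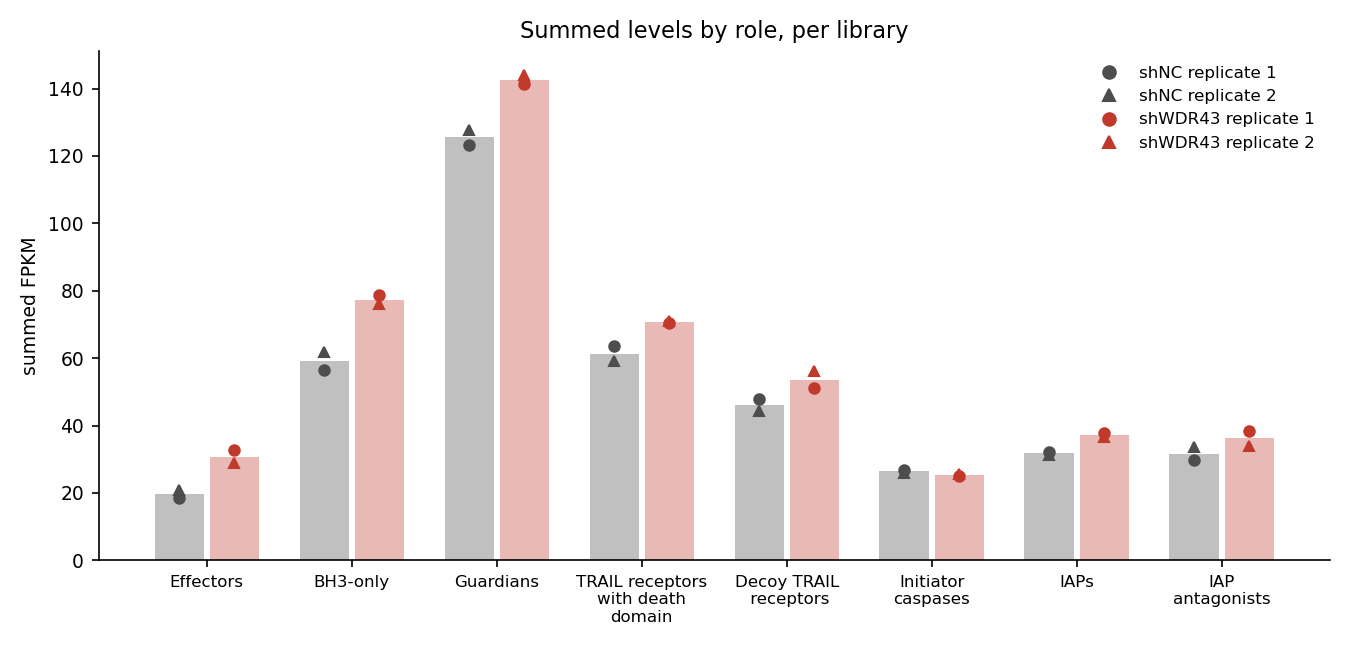
Summed FPKM of the genes of each role (bars: mean of 2 libraries; circles and triangles: replicates 1 and 2), shNC in grey and shWDR43 in red. The guardians are highest in both groups, and the initiator caspases are the only role of the 8 whose mean is lower in shWDR43.

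Among death receptors and adaptors, 3 of 9 members rose. In 8 both knockdown libraries were above both controls, beside 35.8% of all tested genes. FAS, the receptor of FAS ligand (chromosome 10, 88990582 to 89015785), had the largest change of all members. It measured 2.54 and 2.31 FPKM in the controls and 6.17 and 5.45 FPKM in the knockdown libraries, which is a log2 change of 0.99 ± 0.11 (limma adjusted p = 0.0102). FAS shares 758 bases of its span with ACTA2 on the opposite strand, and ACTA2 was also higher, at 4.39 and 6.47 FPKM against 11.8 and 9.79 FPKM (adjusted p = 0.0314). Whether reads were counted by strand is not stated in the sources used here, which makes the level of FAS uncertain. TNFRSF1A, the widely expressed TNF receptor, was at 37.2 and 35.7 against 41.7 and 37.9 FPKM and did not pass (adjusted p = 0.399). FAS stood at 0.0480 of the TNFRSF10B level in both control libraries and at 0.111 and 0.0966 in the knockdown libraries.

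The 4 TRAIL receptor genes lie together on chromosome 8. TNFRSF10A and TNFRSF10B encode the receptors with a death domain, and TNFRSF10C and TNFRSF10D encode decoys that bind TRAIL without passing on a full death signal. On the strand opposite TNFRSF10A, AC100861.1 shares 656 bases and was at 3.74 and 4.13 against 5.34 and 5.57 FPKM. TNFRSF10A-AS1 shares 224 bases there and was at 2.66 and 3.08 against 3.38 and 4.06 FPKM. Strand was not given for the counting, which makes the level of TNFRSF10A uncertain. TNFRSF10A measured 10.8 and 11.0 FPKM in the controls and 15.1 and 14.4 FPKM in the knockdown libraries. Its log2 change was 0.41 ± 0.09 (limma adjusted p = 0.0390). It did not pass without shWDR43 replicate 1 (0.256) or 2 (0.138), under either scaling (0.0630 and 0.0636) or with the replicate block (0.0679). TNFRSF10B, the most abundant receptor, was at 52.9 and 48.0 against 55.4 and 56.4 FPKM, where the log2 difference was 0.15 ± 0.08, interval -0.05 to 0.34 (adjusted p = 0.307). The decoy TNFRSF10D was close to it in level, at 46.5 and 42.8 against 48.5 and 52.2 FPKM (adjusted p = 0.252). TNFRSF10C, the low decoy, rose from 1.52 and 1.39 to 2.54 and 4.09 FPKM, with knockdown libraries that differ by 0.53 on the log2 scale. Its log2 change of 0.79 ± 0.18 (limma adjusted p = 0.0478) became 0.53 without shWDR43 replicate 2 (adjusted p = 0.202) and did not pass without shNC replicate 1 (0.0545) or 2 (0.0567), under median-ratio (0.0580) or upper-quartile scaling (0.0576), or with non-robust moderation (0.0519). The 2 decoy genes are close paralogs whose reads may be split, so the level of TNFRSF10C is uncertain.

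The 3 adaptor genes did not pass, and in each the gap between the control libraries was larger than the difference between groups. FADD, which bridges FAS and caspase-8, measured 4.06 and 5.72 FPKM in the controls and 6.02 and 5.87 FPKM in the knockdown libraries (adjusted p = 0.304). CRADD, which joins caspase-2 to PIDD1, was at 1.85 and 3.09 against 3.45 and 3.61 FPKM, and the control libraries differed by 0.52 on the log2 scale beside a group difference of 0.41 (adjusted p = 0.185). PIDD1, the scaffold of that complex, was at 5.52 and 4.08 against 5.68 and 5.37 FPKM, with overlapping groups (adjusted p = 0.437). It shares 107 bases with the highly expressed ribosomal gene RPLP2 on the opposite strand, so its level is uncertain. FADD and CRADD passed without shNC replicate 2, the library of the controls in which they were higher.

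Among the caspases, 0 of 4 expressed genes passed or had an unadjusted p below 0.05 (limma). CASP8, the initiator of the receptor route, measured 7.88 and 8.27 FPKM in the controls and 7.98 and 8.54 FPKM in the knockdown libraries, which is a log2 difference of 0.03 with an interval of -0.19 to 0.25. CASP9, the initiator of the apoptosome, was at 4.63 and 3.98 against 4.41 and 3.78 FPKM, a log2 difference of -0.06, interval -0.34 to 0.22. CASP2, the PIDD1-linked initiator, was the member whose groups were separated downward, at 13.8 and 13.2 against 12.2 and 12.6 FPKM. Its log2 difference of -0.12, interval -0.32 to 0.08, did not pass (adjusted p = 0.430). CASP6, an executioner, varied most between controls, at 2.87 and 4.69 FPKM, and was at 5.22 and 4.03 FPKM in shWDR43 (adjusted p = 0.438). CASP6 passed without shNC replicate 2.

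In the apoptosome, CYCS rose and APAF1 did not pass. CYCS (chromosome 7, 25120091 to 25125361), whose product also carries electrons in respiration, measured 15.0 and 17.6 FPKM in the controls and 24.4 and 23.7 FPKM in the knockdown libraries. Its log2 change was 0.54 ± 0.10 (limma adjusted p = 0.0301), and 0.52 without shWDR43 replicate 1, where it did not pass (adjusted p = 0.0536). CYCS has many processed pseudogenes that can share its reads, so its level is uncertain. APAF1, the scaffold of the apoptosome, was at 9.63 and 8.49 against 8.70 and 9.01 FPKM, with a log2 difference of -0.03, interval -0.26 to 0.20.

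Among the inhibitors and their antagonists, 1 of 6 members rose. BIRC3, which encodes cIAP2, a ubiquitin ligase of TNF and NF-kB signalling (chromosome 11, 102317450 to 102339403), measured 3.82 and 3.73 FPKM in the controls and 6.68 and 6.76 FPKM in the knockdown libraries. The replicates were close and BIRC3 rose by 0.69 ± 0.10 (log2, limma adjusted p = 0.0179), or 1.78-fold. Its neighbour and paralog BIRC2, which encodes cIAP1, was at 22.2 and 21.1 against 24.8 and 23.5 FPKM, and the log2 difference was 0.15 (adjusted p = 0.289). BIRC3 thus stood at 0.172 and 0.176 of the BIRC2 level in the controls and at 0.270 and 0.287 in the knockdown libraries. XIAP, the direct inhibitor of caspases, was at 6.30 and 6.52 against 6.34 and 6.43 FPKM, a log2 difference of -0.0043 with an interval of -0.23 to 0.22. CFLAR, the gene of the caspase-8 regulator FLIP, was at 6.09 and 7.39 against 8.42 and 6.25 FPKM, with overlapping groups (adjusted p = 0.708).

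The mitochondrial antagonists of these inhibitors did not pass. DIABLO, the gene of SMAC, was the most abundant member of this subgroup, with 25.0 and 28.4 FPKM in the controls and 31.1 and 27.8 FPKM in the knockdown libraries (log2 difference 0.14 ± 0.10, adjusted p = 0.405). The groups overlapped. HTRA2, a protease gene, was at 4.78 and 5.14 against 7.24 and 6.22 FPKM, without overlap (log2 difference 0.37, adjusted p = 0.0836), and it passed without shNC replicate 2. HTRA2 shares 563 bases with AUP1, at a mean of 41.9 FPKM, on the opposite strand.

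In 13 of the 36 expressed members the larger gap within a group exceeded the difference between groups, and in 9 of these that gap was between the shNC libraries. None of the 10 members that rose was among the 13. The test weighs each difference against these same gaps, so this is no separate support. The median absolute gap over the 36 was 0.10 between the shNC libraries and 0.07 between the shWDR43 libraries on the log2 scale. For 14 of the 39 members another gene with a mean of at least 1 FPKM overlapped on the opposite strand, FAS, TNFRSF10A and BCL2L11 among those that rose. For 1 member, BCL2L2, such a gene lay on the same strand. It was BCL2L2-PABPN1, with 4925 shared bases and a mean of 1.86 FPKM, so the level of BCL2L2 is uncertain.

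**Figure D5:**
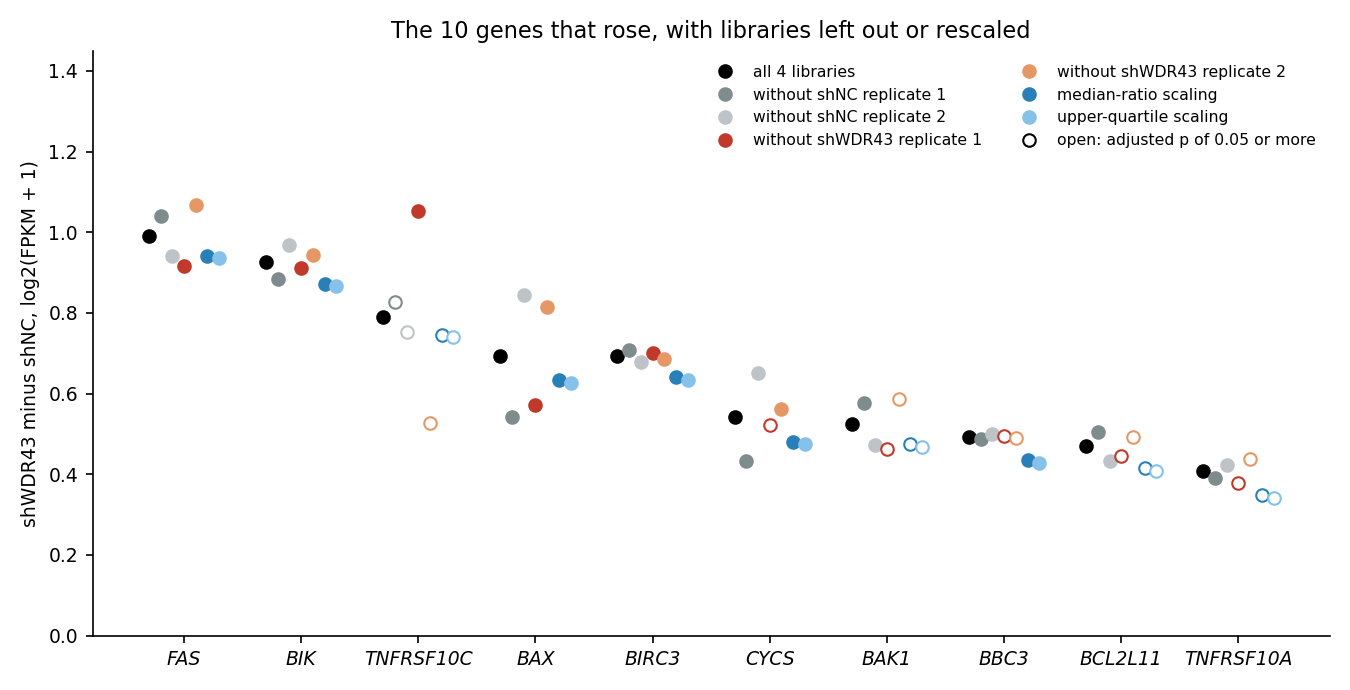
Log2 differences of the 10 members that rose, with all 4 libraries (black), with each library left out (grey and orange-red shades) and after rescaling (blue shades). Filled points passed at an adjusted p below 0.05. All values lie above 0, and FAS, BIK, BAX and BIRC3 are filled throughout.

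Beyond these members, a list of other cell-death genes had 58 tested genes of 76 found, of which 5 rose and 1 fell. That is 10.3% changed in either direction, beside 6.26% of all tested genes, of which 4.79% were higher and 1.47% lower. The median log2 difference of the list was 0.04 beside 0.05 over all tested genes. AEN, a nuclease gene, had the largest change, from 6.64 and 7.61 to 14.4 and 15.3 FPKM (log2 change 0.97 ± 0.10, limma adjusted p = 0.00731). SIVA1, which encodes an adaptor of TNF-family receptors, went from 5.67 and 6.80 to 13.0 and 10.1 FPKM. PERP, which encodes a desmosomal membrane protein, went from 45.8 and 51.7 to 68.8 and 68.5 FPKM. AIFM1, the gene of the mitochondrial apoptosis-inducing factor, and TNFRSF21, the death receptor DR6 gene, rose by 0.46 and 0.37 on the log2 scale. PPP1R13L, the gene of iASPP, fell from 28.1 and 26.1 to 20.8 and 19.3 FPKM (log2 change -0.42). Leaving out either shNC replicate raised the numbers up and down in this list, as it did over all tested genes. Leaving out either shWDR43 replicate lowered the number up, both in this list and over all tested genes. The shifts were thus not particular to this list.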

How the data were processed

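RNA sequencing values of 4 HCT116 libraries, 2 per group by title, were used as deposited. The authors' processing notes name CASAVA 1.8, Trimmomatic, FastQC, HISAT2, RSEM, edgeR and GRCh38, with no role or order. No header names the unit of the deposited values. The authors made the deposited values, treated here as FPKM because of their range and sums, with tools among these per the submitters' processing notes, and TPM over part of the genes cannot be told apart from it. Low values showed no whole-read steps (at most 1.05% of genes in the fullest 1% window of ratios), so read counts were not recovered and the depth is unknown. Of 29286 genes, 29170 had a symbol, and 1 blank entry was left out.

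The test was limma 3.58.1 (R 4.3.3) fitted to log2(FPKM + 1) of genes that reached 1 FPKM in 2 or more libraries, group as the only term, with trended and robust empirical Bayes moderation, two-sided, adjusted over 13303 genes by the Benjamini-Hochberg method at 0.05. There were 2 residual degrees of freedom. Log2 differences are on this scale, which understates changes of low genes, and folds are ratios of mean FPKM. Every member is named, with full statistics for those that passed and for the most abundant and most different of each subgroup, and of the other cell-death genes the 6 with the smallest p-values among those that passed. Some other genes, and 1 further promoter motif that was searched, are not reported here. Members and lists were chosen with earlier results of these data known. Alternatives were 2 scalings, a pseudocount of 0.1, no filter, a filter at 5 FPKM, non-robust moderation, a block for replicate number and omission of each library in turn. Fits with 3 libraries take the spread from the group that still has 2. A crossed block was added after seeing the data. Positions are from GENCODE release 29. Python 3.11.15, pandas 2.3.3 and matplotlib 3.10.9 were used.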

Additional observations from a re-analysis of the deposited data

How the results depend on the processing

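All 10 members that rose had a positive log2 difference under each of the 12 alternatives that tested them, and no member was called lower under any. The filters, the blocks and non-robust moderation leave the difference itself unchanged. Both shWDR43 libraries were above both shNC libraries in these 10, so leaving out 1 library cannot reverse the sign. The positive signs in those fits are therefore no separate support. Over all tested genes, the number higher was 298 under median-ratio scaling, 327 under upper-quartile scaling and 15 without the filter (with 2 lower). Leaving out 1 library gave 258 to 1795 higher and 133 to 815 lower. Of the members, 6 rose under either scaling, 0 without the filter and 5 to 17 with 1 library left out, with 5 without either shWDR43 library. For the BCL2 family these counts were 3, 3, 0 and 2 to 9, and for receptors and adaptors 1, 1, 0 and 1 to 4. For caspases and apoptosome, and for inhibitors and antagonists, they were 0 without the filter, and 0 to 2 and 1 to 2 with 1 library left out. Of the other cell-death genes, 2 rose under median-ratio and 3 under upper-quartile scaling (where 2 fell), 0 rose and 0 fell without the filter, 2 fell with a filter at 5 FPKM, and 2 to 11 rose and 0 to 4 fell with 1 library left out. Summed guardian ratios were 1.09 and 1.08 under the 2 scalings, initiator caspases 0.916 and 0.911, and IAPs 1.12 and 1.11. Without the filter 26938 genes entered the test, and the cause of the lower counts was not tested. The cause of the other moved counts was not tested either.

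Same-numbered libraries did not deviate together (r = -0.147 over 13303 genes), so the numbers are not taken as pairs. With the replicate block 413 genes were higher over all genes, 8 members rose (BCL2L11 and TNFRSF10A were lost), and 0 of the other cell-death genes fell. Non-robust moderation gave 9 members (TNFRSF10C was lost). With the crossed block, added after seeing the data, 1375 were higher and 579 lower, 12 members rose, 2 of them inhibitors or antagonists, and 9 other cell-death genes rose and 3 fell. Read totals were not used here, so no limit from depth can be given.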
